A study of Mus musculus with 17 samples.

Results

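Loss of chromogranin A (CgA, encoded by Chga) was examined in the cortex of PS19 tauopathy mice by comparing 6 CgA-KO/PS19 libraries with 6 PS19 libraries, which are 12 of the 17 libraries of the series. The members of the comparison were chosen by their labelled genotype, and 5 WT libraries served as a reference for which changes also separated WT from PS19. PS19 mice express a mutant form of human MAPT from a transgene that the Prnp promoter drives, so human Tau is made in addition to mouse Tau. CgA-KO/PS19 mice carry the same transgene and lack Chga in the whole body through a Cre-loxP deletion that was made on a mixed 129/SvJ and C57BL/6 background and then backcrossed. All 3 genotypes were B6C3F1/J mice of 8 months by the labels, which write hTau where PS19 is written here, and polyA RNA of the prefrontal cortex was sequenced. The comparison asks which transcripts follow CgA in a brain that makes mutant Tau, and no CgA-deficient group without the Tau transgene was analysed here.

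Chromogranin A is an acidic protein of dense-core vesicles, the organelles in which neurons and endocrine cells store peptides and catecholamines. Together with chromogranin B and the secretogranins it condenses vesicle cargo, and it is cut into peptides that are released with that cargo. Mutant Tau forms aggregates in neurons of PS19 mice, and glial reactivity and loss of neurons follow with age.

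The targeted gene followed the labels. Chga (chr12:102554969-102565028, plus strand of GRCm38) was between 162 and 177 CPM (counts scaled to library size) in PS19, with a median of 166 CPM, and had 0 counts in all 6 CgA-KO/PS19 libraries. Against a limit of 9 counts per library this was at least 1126-fold lower. Prnp, the prion protein gene whose promoter drives the transgene, was 1974 to 2368 CPM in PS19, 1236 to 2078 CPM in CgA-KO/PS19 and 748 to 914 CPM in WT. CgA-KO/PS19 was the lower of the first pair, by a log2 fold change of -0.44 ± 0.12 (SE, adjusted p = 0.0304), which was -0.78 in replicates 1 to 3 and -0.14 in replicates 4 to 6. Mapt, the mouse Tau gene, was 831 to 952 CPM in PS19 and 584 to 868 CPM in CgA-KO/PS19, and that difference did not pass the test (log2 fold change -0.30 ± 0.22, adjusted p = 0.387). Among 18 tested genes of the granin family and of prohormone processing, Chga was the 1 called over all libraries. Within replicates 1 to 3, 9 of the 18 were lower, Chga among them, and 1 higher, beside 16.2% and 14.9% of all genes, with a median of -0.42. Within replicates 4 to 6, 1 was lower, which was the deleted Chga itself, and 1 higher, with a median of -0.02. Chgb, the closest relative of Chga, had a median of 661 CPM in PS19 and 579 CPM in CgA-KO/PS19 (log2 fold change -0.0029 ± 0.28, adjusted p = 0.996).

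The CgA-KO/PS19 libraries differed among themselves more than the PS19 libraries did, and this touched most results. Total counts lay between 53271515 and 227651681 for PS19 libraries and between 37657767 and 184877001 for CgA-KO/PS19 libraries, and about 3 counts stood for 1 fragment. Mitochondrially encoded genes took 2.56% to 4.59% of the counts in PS19, and 15.3%, 18.2%, 13.8%, 3.84%, 6.63% and 10.9% in CgA-KO/PS19 replicates 1 to 6. Over 3761 well-covered genes, the robust SD of the log2 ratio between 2 libraries had a median of 0.158 in PS19 and 0.373 in CgA-KO/PS19. Replicates 4 to 6 of PS19, and replicates 1 and 3 of CgA-KO/PS19, lay closest together, at 1.95 times the counting noise or more, and were kept as separate libraries. The robust SD was 0.0523 to 0.0607 among these PS19 libraries and 0.098 between these CgA-KO/PS19 libraries. Tests within a library set thus held libraries with little spread between them, and a pass in both sets carries that limit. The Y-linked gene Ddx3y was present in replicates 1 to 3 of each genotype and nearly absent in the others. It was 49.8 to 76.8 CPM in replicates 1 to 3 and at most 0.0582 CPM in replicates 4 to 6 of PS19 and CgA-KO/PS19. The study used males and females, but no label ties a library to a sex. Markers of striatal medium spiny neurons, which lie below the cortex, summed to 356 to 517 CPM in PS19 and to 2177, 650 and 2153 CPM in CgA-KO/PS19 replicates 1 to 3, against 373, 586 and 605 CPM in replicates 4 to 6. Main counts and the counts of many lists are therefore also given within replicates 1 to 3 and within replicates 4 to 6. That division was chosen after the data had been seen. A list count given over all libraries only may rest on 1 of the 2 library sets. Within CgA-KO/PS19, the 3 libraries with Ddx3y were also the 3 with the highest mitochondrial share, so those 2 features cannot be told apart between the library sets. The striatal sum did not follow them throughout, since replicate 2 had the highest mitochondrial share and a striatal sum near those of replicates 5 and 6. The striatal genes Drd2 and Six3 did, at 10.9 and 4.18 CPM in replicate 2. In replicates 4 to 6 they were at most 1.47 and 0.124 CPM.

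**Figure D1:**
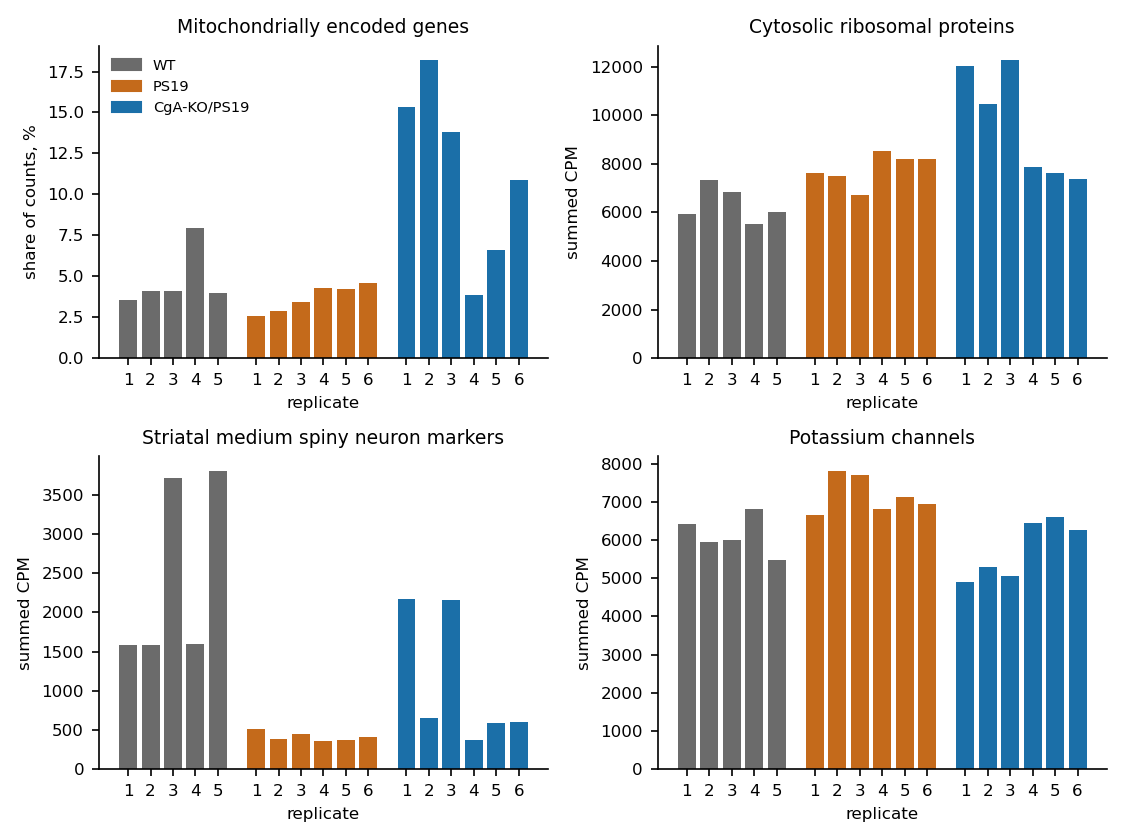
Bars give, for each library (replicate number on the x axis, colour by genotype), the percentage of counts from mitochondrially encoded genes and the summed CPM of cytosolic ribosomal protein genes, striatal medium spiny neuron markers and potassium channel genes. CgA-KO/PS19 replicates 1 to 3 had 10458 to 12258 CPM of ribosomal protein transcripts against 7365 to 7857 CPM in replicates 4 to 6.

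The differences covered many genes and rested strongly on single libraries. Of 23062 genes tested, 1268 were higher in CgA-KO/PS19 at a false discovery rate (FDR) under 0.05, which is 5.5% of those tested, and 974 were lower (4.22%). Without CgA-KO/PS19 replicate 2 the counts were 616 and 403, and without replicate 4 they were 2018 and 1804. Leaving out WT replicate 4, the shallowest library, from the shared fit gave 1819 and 1726. With the near-identical libraries averaged (PS19 replicates 4 to 6, CgA-KO/PS19 replicates 1 and 3), 92 of the 135 called genes named lost their call. By the threshold of the study, which asks for an unadjusted p under 0.01 and a log2 fold change past 0.5, 1452 genes were higher (6.3%) and 793 lower (3.44%). All CgA-KO/PS19 libraries lay above all PS19 libraries for 655 genes (2.84%) and below them for 874 (3.79%). The higher and lower genes were of different kinds. The higher genes had a median level of 1.87 CPM in PS19 and a median log2 fold change of 0.99, and 54.6% of those annotated were protein-coding. The lower genes had a median level of 31.01 CPM and a median log2 fold change of -0.59, and 88.5% were protein-coding, against 71.2% of all genes tested. Transcripts of the annotation class TEC, which lack experimental proof, were higher in 117 of 1180 cases and lower in 10. For processed pseudogenes the counts were 201 and 49 of 1919.

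Within replicates 1 to 3 alone, 3214 genes were higher (14.9% of 21613 tested) and 3499 lower (16.2%). Within replicates 4 to 6 alone, 128 were higher (0.543% of 23562 tested) and 62 lower (0.263%). The fold change itself differed between the 2 library sets at an FDR under 0.05 for 3751 of 23062 genes (16.3%). Genes called in both sets numbered 44 higher in both, 23 lower in both and 16 in opposite directions. Of the higher genes that were tested in both sets, 1172 of 1220 had a positive fold change in replicates 4 to 6, with a median of 0.571 on the log2 scale against 1.21 in replicates 1 to 3. Of the lower genes, 966 of 966 were negative in replicates 4 to 6, with medians of -0.457 and -0.721. The call over all 12 libraries had used both sets, so these shares describe the called genes and do not test them.

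**Figure D2:**
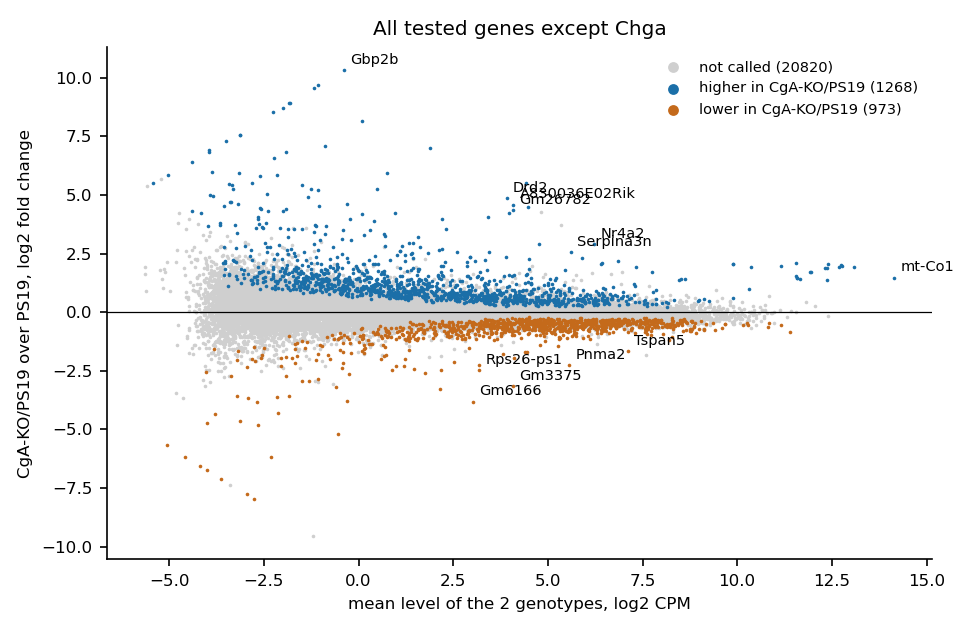
Each point is 1 gene, with the mean level of both genotypes on the x axis (log2 CPM) and the log2 fold change of CgA-KO/PS19 over PS19 on the y axis, and blue and orange mark genes called higher (1268) and lower (973, Chga left out). Called genes in the higher direction lie mostly at low levels and called genes in the lower direction at moderate ones.

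The clearest rises among protein-coding genes were those of Serpina3n, Nr4a2, Vps41, Pop4, Utp14b, Esco1 and Rps3a1. Leading rises and falls were picked mainly among called genes without overlap between the groups, so their separation is no further result. Serpina3n (chr12:104406729-104414329), a serine protease inhibitor made by reactive astrocytes, was 7.8 to 20.4 CPM in PS19 with a median of 13.8 and 76.8 to 92.6 CPM in CgA-KO/PS19 with a median of 83.3. Every CgA-KO/PS19 library lay above every PS19 library, and WT was at 7.98 to 15.8 CPM. Its log2 fold change was 2.56 ± 0.20 (adjusted p = 6.42e-07), with 2.47 in replicates 1 to 3 and 2.65 in replicates 4 to 6. Nr4a2 (chr2:57106830-57124003), an orphan nuclear receptor that marks dopaminergic and claustral neurons and responds to activity, was 9.22 to 48.6 CPM in PS19 (median 11.8) and 89.1 to 178 CPM in CgA-KO/PS19 (median 133). PS19 replicate 1 stood apart at 48.6 CPM, the groups did not overlap, and the log2 fold change was 2.90 ± 0.37 (adjusted p = 0.000291).

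Vps41, a subunit of the HOPS complex that tethers vesicles to lysosomes and acts in the making of dense-core vesicles, rose from a median of 101 CPM (range 98.3 to 116) to 162 CPM (151 to 191). The log2 fold change was 0.69 ± 0.08 (adjusted p = 0.00012), and it was 0.67 and 0.71 in the 2 library sets. Pop4, a protein of the RNase P and RNase MRP complexes, rose from 7.43 CPM (6.65 to 8.6) to 17 CPM (14.1 to 20.3), with a log2 fold change of 1.21 ± 0.11 (adjusted p = 6.28e-06). Sox11, a transcription factor of immature neurons, rose from 13.5 CPM (12.9 to 16) to 27.4 CPM (24 to 28.6). For these 3 genes CgA-KO/PS19 did not overlap with PS19, and its replicates 1 to 3 overlapped in level with its replicates 4 to 6. WT was also above PS19 for Sox11, at 20.1 to 37.7 CPM. Utp14b, a retrocopy with a role in ribosomal RNA processing, and Esco1, a cohesin acetyltransferase, had log2 fold changes of 1.23 ± 0.12 (adjusted p = 1.82e-05) and 0.81 ± 0.10 (adjusted p = 0.000119), and both missed the threshold within replicates 4 to 6 (adjusted p = 0.061 and 0.087).

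The leading falls were those of Pnma2, Tspan5, Armcx1, F2r, Klhl33 and Proser2. Pnma2 (chr14:66911170-66921023), a neuronal gene derived from a retrotransposon Gag gene, was 72.9 to 83.9 CPM in PS19 (median 78.6) and 10.6 to 32.1 CPM in CgA-KO/PS19 (median 14.4). CgA-KO/PS19 replicate 4 was the highest of its group and still below every PS19 library, and the log2 fold change was -2.26 ± 0.21 (adjusted p = 6.28e-06). Armcx1, an outer mitochondrial membrane protein that aids mitochondrial transport in axons, fell from 87.3 CPM (81.4 to 99.9) to 44.4 CPM (32.9 to 57.4; log2 fold change -0.9954 ± 0.13, adjusted p = 0.000399). F2r, the thrombin receptor PAR1, fell from 8.98 CPM (7.14 to 9.24) to 4.45 CPM (3.67 to 4.86; log2 fold change -1.02 ± 0.12, adjusted p = 7.91e-05). Klhl33, a kelch-family protein, fell from 27.8 CPM (21 to 33.4) to 6.81 CPM (4.76 to 10.5), with fold changes of -2.48 and -1.59 on the log2 scale in the 2 library sets, a difference that passed its test (adjusted p = 0.024). Tspan5, a tetraspanin that guides the sheddase ADAM10, fell from 208 CPM (190.0 to 243) to 62.9 CPM (61.2 to 92.1). WT was also lower than PS19 for Tspan5, at 61.6 to 166 CPM. Proser2 fell by 2.27 ± 0.35 on the log2 scale (adjusted p = 0.00159). Tspan5 and Proser2 missed the threshold within replicates 4 to 6 (adjusted p = 0.091 and 0.17).

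**Figure D3:**
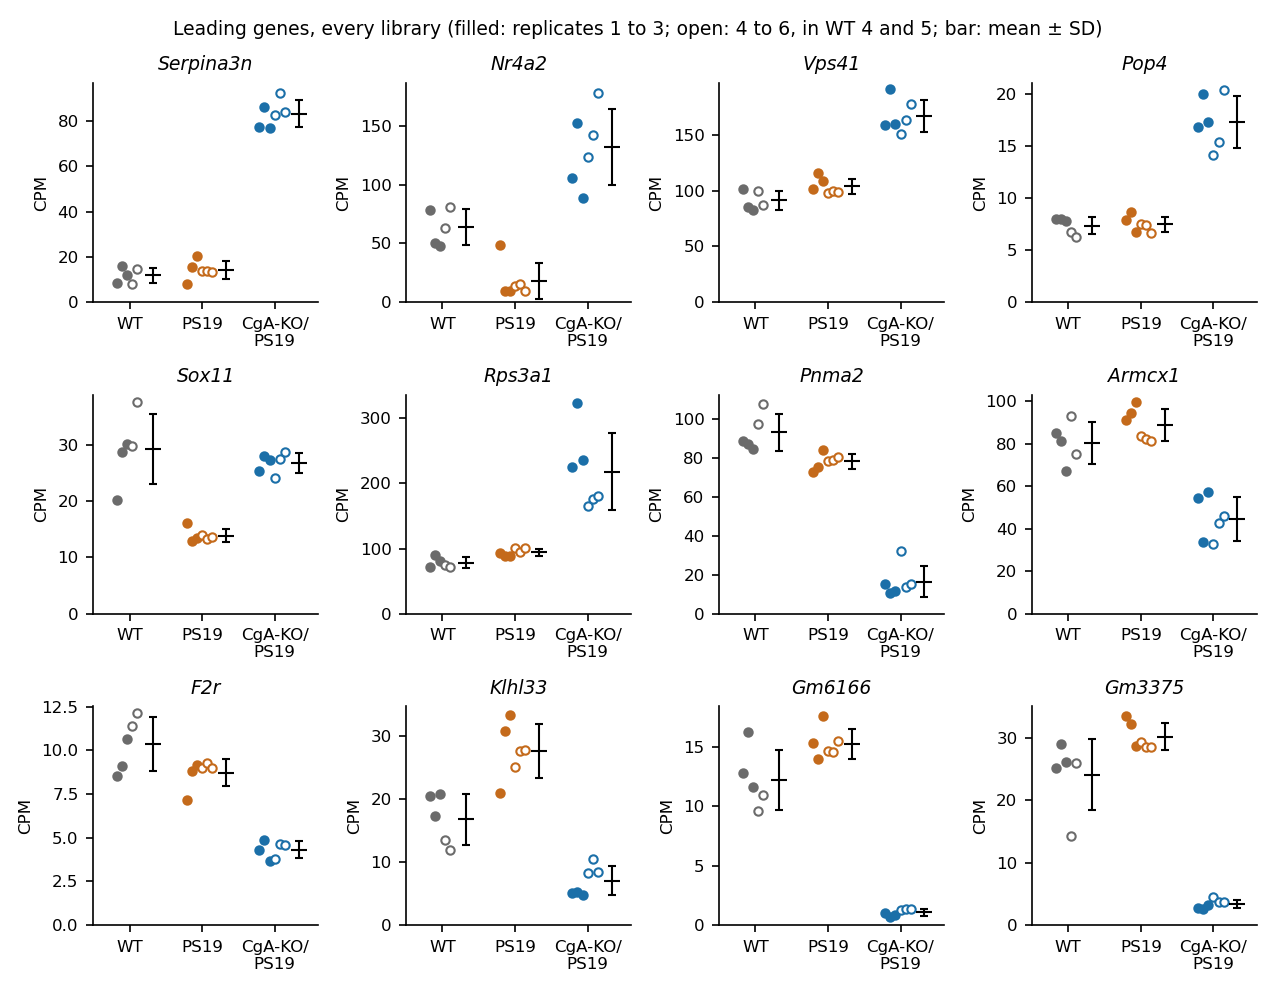
CPM (y axis) of 12 leading genes in each WT, PS19 and CgA-KO/PS19 library, with filled points for replicates 1 to 3, open points for replicates 4 to 6 (4 and 5 in WT) and a bar for the mean and SD. In each panel the 6 CgA-KO/PS19 libraries lie apart from the 6 PS19 libraries. Leading genes were drawn mainly from called genes without overlap, so this separation follows from the choice.

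Several of the largest changes were in transcripts without a known protein or in copies of other genes. Gm26782 (chr14:50870324-50880603), a noncoding transcript that lies next to Klhl33, rose from 1.54 CPM (1.34 to 2.17) to 29.3 CPM (21.6 to 45.6), and A830036E02Rik from 1.33 CPM (1.06 to 1.71) to 23.5 CPM (13.7 to 60.7). Their log2 fold changes were 4.34 ± 0.23 and 4.58 ± 0.45. The noncoding pair Gm16867 and Gm27177, which share most of their sequence with each other, rose by 2.52 ± 0.29 and 2.57 ± 0.32. The deepest falls were of Gm6166 (log2 fold change -3.81 ± 0.18), Gm3375 (-3.15 ± 0.16), Rps26-ps1 (-2.48 ± 0.37), Tdg-ps2 (-2.45 ± 0.22) and Gm7224 (-2.43 ± 0.19). Their levels in CgA-KO/PS19 were 0.677 to 1.39 CPM for Gm6166 and 2.65 to 4.43 CPM for Gm3375, against 13.9 to 17.6 and 28.6 to 33.6 CPM in PS19.

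These falls were read against the genes the copies resemble, because a short read that fits both can be counted for either. In GENCODE M21, 78.1% of the 31-base stretches of Gm6166 occur in another gene, most often Fabp5, a fatty acid carrier, and 70.6% of those of Gm3375, most often Psmb5, a catalytic subunit of the proteasome. The shares were 91.9% for Rps26-ps1 and 90.5% for Tdg-ps2. At least 50% of the stretches were shared for 20.4% of the higher genes and 6.83% of the lower genes, against 11.4% of all genes with a transcript. For 3 of these pairs, 90 bases of GENCODE M21 transcripts are given, in transcript orientation, where capitals mark the single base at which the pair differs in the stretch shown. They are shown because a read from such a stretch separates copy from parent by 1 base at most. Each stretch was picked for the fewest differences, but at least 1, so it does not stand for the whole pair. Laid side by side without gaps, Gm6166 and Fabp5 were 71.3% identical over 408 bases. The values were 75.8% over 795 bases for Gm3375 and Psmb5 and 99.4% over 348 bases for Rps26-ps1 and Rps26. The genes lie at chr9:57483963-57484371 (Gm6166, plus strand), chr3:10012548-10016607 (Fabp5, plus), chr7:3181093-3181888 (Gm3375, plus), chr14:54614119-54618022 (Psmb5, minus), chr8:107439131-107439579 (Rps26-ps1, minus) and chr10:128624534-128626747 (Rps26, minus) of GRCm38.
Gm6166: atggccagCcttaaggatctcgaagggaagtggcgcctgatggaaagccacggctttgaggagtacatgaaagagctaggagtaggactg
Fabp5: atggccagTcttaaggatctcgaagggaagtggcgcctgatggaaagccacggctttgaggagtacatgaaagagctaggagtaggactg
Gm3375: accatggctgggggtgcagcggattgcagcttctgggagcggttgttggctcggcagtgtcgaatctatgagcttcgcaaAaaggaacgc
Psmb5: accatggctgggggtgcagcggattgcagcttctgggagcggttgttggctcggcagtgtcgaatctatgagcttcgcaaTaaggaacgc
Rps26-ps1: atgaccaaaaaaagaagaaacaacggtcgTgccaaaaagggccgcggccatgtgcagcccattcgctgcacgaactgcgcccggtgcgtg
Rps26: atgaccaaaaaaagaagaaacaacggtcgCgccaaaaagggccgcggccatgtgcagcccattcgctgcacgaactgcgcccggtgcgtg

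None of the 3 parents was lower in CgA-KO/PS19. Fabp5 had a median of 45.6 CPM in PS19 and 54.0 CPM in CgA-KO/PS19 (log2 fold change 0.23, adjusted p = 0.123), and Psmb5 34.9 and 47.8 CPM (0.34, adjusted p = 0.251). Rps26, a protein of the small ribosomal subunit, rose from 57.8 CPM to 121 CPM while its copy fell. Whether reads were exchanged between copy and parent was not tested.

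Mitochondrially encoded transcripts were higher almost throughout. The proteins encoded by mitochondrial DNA are subunits of the respiratory chain and ATP synthase, and the remaining genes give the ribosomal and transfer RNAs. Of 36 such genes tested, 35 were higher and 0 lower, against 5.5% and 4.22% of all genes, with a median log2 fold change of 1.60 beside 0.03 over all genes. The gene of cytochrome oxidase subunit 1, mt-Co1, was 6272 to 12101 CPM in PS19 (median 10068) and 9403 to 42143 CPM in CgA-KO/PS19 (median 27844), with overlap between the groups. Its log2 fold change was 1.48 ± 0.30 (adjusted p = 0.00783). The cytochrome b gene mt-Cytb (1.93 ± 0.36, adjusted p = 0.00515) and the small ribosomal RNA mt-Rnr1 (1.39 ± 0.25, adjusted p = 0.00473) rose similarly. In replicates 1 to 3, 36 of 36 mitochondrial genes were higher, beside 14.9% of all genes, with a median of 2.42. In replicates 4 to 6, 0 of 36 were higher, with a median of 0.76. With the mitochondrial share of each library as a covariate, 53 genes of the whole table were higher and 22 lower. That covariate sums these same genes, so it gives no test of them. None of the 36 was called between WT and PS19 by edgeR. Nuclear copies of mitochondrial DNA carried the same signal: Gm28661 (chr1:24614885-24615565, minus strand), chosen for mention after its values were seen, is identical to mt-Co2 (chrM:7013-7696, plus strand) over its 681 bases, and both had a log2 fold change of 1.72. Their first 90 bases are shown because no read from them can tell the nuclear gene from the mitochondrial one.
Gm28661: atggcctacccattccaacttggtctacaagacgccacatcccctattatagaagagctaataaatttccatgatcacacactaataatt
mt-Co2: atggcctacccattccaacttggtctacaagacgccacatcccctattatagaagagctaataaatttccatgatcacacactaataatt

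Of 79 nuclear genes of the same respiratory complexes, 5 were higher and 2 lower, beside 5.5% and 4.22% of all genes, and the median was 0.02. In the first 3 replicates of each group, 24 were higher and 12 lower, beside 14.9% and 16.2%, and within replicates 4 to 6, 0 were called. Ndufb4, a complex I subunit, rose from 26.8 CPM (24.7 to 29.5) to 40.1 CPM (29.9 to 46.7), whereas Ndufv1, another complex I subunit, fell from 83 CPM (78.6 to 95.4) to 60.7 CPM (45.6 to 87.7). Their log2 fold changes were 0.53 ± 0.12 (adjusted p = 0.0137) and -0.47 ± 0.13 (adjusted p = 0.0303). Atp5md rose by 0.79 ± 0.19 and Atp5d, a subunit of the F1 part of ATP synthase, fell by 0.50 ± 0.13.

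Cytosolic ribosomal protein genes were higher in 14 of 78 cases and lower in 0, beside 5.5% and 4.22% of all genes, with a median of 0.28. Rps3a1, a protein of the small subunit whose symbol falls outside the 78 counted, rose from 93.6 CPM (87.7 to 101) to 203 CPM (166 to 324), and its 6 libraries lay above all PS19 and WT libraries. The log2 fold change of Rps3a1 was 1.21 ± 0.14 (adjusted p = 7.25e-05), 76.9% of its sequence is shared with other genes, and it passed the test in both library sets. Rps26 (1.01 ± 0.13, adjusted p = 0.000399), Rpl29 (1.23 ± 0.24, adjusted p = 0.00603) and Rpl23 (0.54 ± 0.12, adjusted p = 0.0115) also rose without overlap, and Rps24 (0.75 ± 0.18, adjusted p = 0.0156) rose with overlap. The list divided the library sets. Replicates 1 to 3 had 69 of 78 higher with a median of 0.70, beside 14.9% of all genes. In replicates 4 to 6, 0 of 78 were higher, with a median of -0.19. Without CgA-KO/PS19 replicate 2, 5 ribosomal protein genes were higher, and without replicate 4, 25 were. The fold change differed between the sets for 58 of the 78, beside 16.3% of all genes.

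Nuclear long noncoding RNAs were higher in 8 of 24 cases and lower in 0, beside 5.5% and 4.22% of all genes, with a median of 0.47. Sox2ot, which overlaps the Sox2 gene, rose from 2.35 CPM (1.84 to 3.9) to 11.4 CPM (6.31 to 26) without overlap (log2 fold change 2.35 ± 0.31, adjusted p = 0.000386) and passed the test in both library sets. The imprinted RNA Meg3 rose from 893 CPM (574 to 1070) to 1633 CPM (1042 to 2607), with log2 fold changes of 1.61 in replicates 1 to 3 and 0.29 in replicates 4 to 6. Kcnq1ot1, another imprinted RNA, rose by 1.44 ± 0.26 (adjusted p = 0.00463), and Gas5, which hosts small nucleolar RNAs, by 0.73 ± 0.16 (adjusted p = 0.0112). Both missed the threshold within replicates 4 to 6 (adjusted p = 0.34 and 0.46). Replicates 1 to 3 had 16 of the 24 RNAs higher and 1 lower, beside 14.9% and 16.2% of all genes, with a median of 0.90. Replicates 4 to 6 had 1 higher and 0 lower, with a median of 0.06. The fold change differed between the sets for 12 of the 24, beside 16.3% of all genes. Of 78 splicing factors and RNA-binding proteins, 12 were higher and 0 lower, with a median of 0.13. Among them the splicing kinase Clk1 rose from 28.4 CPM (17.6 to 30.9) to 44.1 CPM (39 to 66.1; 0.85 ± 0.15, adjusted p = 0.00319), and the splicing factors Srsf11 and Pnisr rose by 0.53 ± 0.10 and 0.82 ± 0.17. Within replicates 1 to 3, 16 of the splicing list were higher and 18 lower, beside 14.9% and 16.2% of all genes, and 0 of 78 were called in replicates 4 to 6. The medians were -0.02 and 0.21. The 385 genes named Zfp, mostly zinc finger transcription factors, held 27 higher (7.01%) and 11 lower (2.86%), near the shares of all genes.

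Called potassium channel genes were lower more often than higher. Of 83 tested, 13 were lower and 3 higher, beside 4.22% and 5.5% of all genes, and the median was -0.34. Kcnc1, which encodes the fast Kv3.1 channel, fell from 312 CPM (289 to 341) to 193 CPM (157 to 267), and Kcnh2, the ERG channel, from 37.4 CPM (34.8 to 40.2) to 19.9 CPM (18 to 30.4). Kcnj11, the pore of the ATP-sensitive potassium channel, fell by 0.68 ± 0.14 (adjusted p = 0.00825). None of these 3 overlapped between groups. Kcnk2, the TREK-1 leak channel, was among the exceptions and rose from 46.8 CPM (44.4 to 54.1) to 65.8 CPM (61.3 to 95.4). Among sodium, calcium, HCN and chloride channels, 6 of 51 were lower and 3 higher (median -0.13), with falls of Cacna1g, a T-type calcium channel (-0.81 ± 0.16), and Clcn6, a late endosomal chloride transporter (-0.47 ± 0.11). Replicates 1 to 3 had 30 of 83 potassium channel genes lower and 5 higher, beside 16.2% and 14.9% of all genes. In replicates 4 to 6, 1 was lower and 1 higher. The medians were -0.45 and -0.19. Of the 51 other channel genes, 20 were lower and 4 higher in replicates 1 to 3, and 1 lower and 1 higher in replicates 4 to 6. Without CgA-KO/PS19 replicate 2, 5 potassium channel genes were lower, and without replicate 4, 21 were.

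The machinery of synaptic vesicle release was also called lower more often than higher, with 13 of 57 genes lower and 3 higher, beside 4.22% and 5.5% of all genes, and a median of -0.22. Cplx1, a complexin that clamps and triggers fusion, was 866 to 1012 CPM in PS19 (median 973) and 487 to 761 CPM in CgA-KO/PS19 (median 577), with a log2 fold change of -0.69 ± 0.11 (adjusted p = 0.00201). The synaptobrevin gene Vamp1 fell from 243 CPM (185 to 285) to 132 CPM (98.6 to 179.8), and Napa, the alpha-SNAP that recycles SNARE complexes, from 238 CPM (215 to 239) to 135 CPM (127 to 197). Syt3, a calcium sensor, fell by 0.85 ± 0.19 (adjusted p = 0.0125). Snap25, the most abundant gene of this list, was 5124 to 6046 CPM in PS19 and 3092 to 8563 CPM in CgA-KO/PS19 and did not pass the test (adjusted p = 0.738). Within replicates 1 to 3, 23 of the 57 were lower, beside 16.2% of all genes, and in replicates 4 to 6, 1 was lower and 3 were higher.

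Receptors changed gene by gene. Of 9 adrenergic receptor genes, 2 were called and both fell, beside 4.22% of all genes lower. The α1 receptor gene Adra1b fell from 26.1 CPM (20.9 to 33.2) to 10.5 CPM (9.4 to 17.4; log2 fold change -1.10 ± 0.20, adjusted p = 0.00514) and Adra1d from 41.3 CPM (37.3 to 42.3) to 11.4 CPM (7.21 to 32.6; -1.39 ± 0.36, adjusted p = 0.0229). These respond to noradrenaline, which dense-core vesicles store with CgA. Adra1a did not pass the test (-0.36 ± 0.13, adjusted p = 0.0801), nor did the α2 and β receptors, whose estimates ran from -0.35 to 1.87. In replicates 4 to 6 neither Adra1b nor Adra1d passed the test (log2 fold changes -0.80 and -0.97, adjusted p = 0.21 and 0.31), against -1.45 and -2.07 in replicates 1 to 3. Of the 9 genes, 3 were lower and 2 higher in replicates 1 to 3, beside 16.2% and 14.9% of all genes, and 0 were called in replicates 4 to 6. WT was also lower than PS19 for Adra1b and Adra1d, at 9.08 to 19.8 and 6.16 to 23.1 CPM. Htr1a, the serotonin 1A receptor, fell from 23.7 CPM (22 to 31.9) to 15.3 CPM (11.5 to 19.9), and Lynx1, a membrane-bound brake on nicotinic receptors, fell from 555 CPM (454 to 579) to 310.3 CPM (307 to 376) with passes in both library sets. Grm2, an inhibitory glutamate autoreceptor, fell by 0.9982 ± 0.28 (adjusted p = 0.0353). The GABA-A receptor subunit Gabra2 rose from 98.4 CPM (79.9 to 115) to 217 CPM (131 to 338), and the glycine receptor subunit Glra2 from 7.82 CPM (6.23 to 12.2) to 16.4 CPM (13.1 to 20.3). Both were higher within each library set.

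Peptide signalling, the cargo side of dense-core vesicles, held changes in both directions. Of 34 neuropeptide precursors, 4 were higher and 3 lower, beside 5.5% and 4.22% of all genes, with a median of 0.02. Adcyap1, the precursor of PACAP, fell from 37.9 CPM (31.8 to 40) to 19.2 CPM (10.5 to 26.6; log2 fold change -0.98 ± 0.23, adjusted p = 0.0171), Cck, the cholecystokinin precursor, from 207 CPM (179 to 233) to 143 CPM (75.1 to 173), and Nppc, the C-type natriuretic peptide, from 4.46 CPM (3.93 to 4.59) to 2.66 CPM (2.31 to 3.05). Nmb, neuromedin B, rose from 0.346 CPM (0.168 to 0.856) to 1.52 CPM (0.866 to 2.37). Of 49 neuropeptide receptors, 9 were higher and 4 lower. Replicates 1 to 3 alone had 6 precursors and 9 receptors higher and 9 and 12 lower, beside 14.9% and 16.2% of all genes. Within replicates 4 to 6, 2 precursors and 3 receptors were higher and 0 lower, beside 0.543% and 0.263%. The somatostatin receptor genes Sstr1 (-1.0040 ± 0.21, adjusted p = 0.00795) and Sstr3 (-0.42 ± 0.09, adjusted p = 0.00919) fell, and Npbwr1, a receptor for neuropeptides B and W, rose from 0.529 CPM (0.483 to 0.783) to 1.43 CPM (0.953 to 1.87). Rxfp1, the relaxin receptor, rose by 0.95 ± 0.20 (adjusted p = 0.00873). Downstream of these receptors, Pde4a, a cAMP phosphodiesterase, fell from 161 CPM (147 to 163) to 112 CPM (96.3 to 134), Adcy9, an adenylate cyclase, fell by 0.54 ± 0.16, and Pde8a rose by 0.59 ± 0.16.

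Called markers of interneurons and of the general excitatory list were lower, while lists of cortical layers differed. Of 22 GABAergic interneuron markers, 5 were lower and 0 higher (median -0.25), beside 4.22% and 5.5% of all genes. Gad1, which makes GABA, fell from 533 CPM (493 to 634) to 304 CPM (209.6 to 451; log2 fold change -0.78 ± 0.16, adjusted p = 0.00761), and Pvalb, the calcium buffer of fast-spiking cells, from 72 CPM (61.4 to 75.9) to 43.1 CPM (21.5 to 47.6). Slc32a1, the vesicular GABA transporter, fell by 0.62 ± 0.18 (adjusted p = 0.0367). Of 14 excitatory markers, 3 were lower, among them Emx1 (-0.86 ± 0.24) and Lamp5 (-0.92 ± 0.28), and 6 of the 14 had positive estimates. Of 14 upper-layer markers, 2 were higher and 2 lower. Of 17 deep-layer markers, 14 had positive estimates, with a median of 0.47, and 1 was called, higher. In bulk tissue, fewer cells of a type cannot be told apart from less RNA per cell. Without PS19 replicate 2, 2 interneuron markers were lower. In replicates 1 to 3, 11 interneuron markers were lower and 1 higher, beside 16.2% and 14.9% of all genes. In replicates 4 to 6, 0 of 22 were called. For the 14 excitatory markers these counts were 6 lower and 1 higher, and 0 called. For the 17 deep-layer markers they were 4 lower and 2 higher, and 5 higher and 0 lower. The summed level of the interneuron list was 1743 to 1924 CPM in PS19, 1080 to 1097 CPM in CgA-KO/PS19 replicates 1 to 3 and 1578 to 1660 CPM in replicates 4 to 6.

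Genes of autophagy and the lysosome were lower in 7 of 58 cases and higher in 0, beside 4.22% and 5.5% of all genes, with a median of -0.24. Within replicates 1 to 3, 25 were lower and 4 higher, beside 16.2% and 14.9% of all genes, and within replicates 4 to 6, 0 were called. Atp6v0c, a proton pore subunit of the vacuolar ATPase, fell from 462 CPM (285 to 529) to 183 CPM (125 to 312; -1.05 ± 0.28, adjusted p = 0.0259). The cathepsin gene Ctsb fell from 670.5 CPM (596 to 766) to 459 CPM (376 to 632), Glb1, lysosomal β-galactosidase, from 27.8 CPM (25.9 to 29.2) to 16.1 CPM (13.8 to 24.4), and Ulk1, a kinase that starts autophagy, from 103 CPM (99.1 to 108) to 79.4 CPM (62.8 to 92.3). Glb1 and Ulk1 did not overlap. Neu1, lysosomal sialidase, was near the threshold (-0.40 ± 0.12, adjusted p = 0.048). The count of lower lysosomal genes was 1 without PS19 replicate 2 and 21 without CgA-KO/PS19 replicate 4. For proteasome subunits 3 of 39 were lower and 1 higher, with Psmc5 at -0.30 ± 0.08 and the immunoproteasome subunit Psmb10 at -0.54 ± 0.16. Of 47 heat shock chaperones 1 was lower over all libraries. The fold change of 25 differed between the library sets, beside 16.3% of all genes, and 23 of these had the lower value in replicates 1 to 3.

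Glial genes, read beside 5.5% of all genes higher and 4.22% lower, depended on the libraries as well. Of 17 astrocyte markers, 2 were higher and 0 lower: Aqp4, the water channel of astrocyte endfeet (0.67 ± 0.19, adjusted p = 0.0366), and Slc1a3, a glutamate transporter (0.51 ± 0.15, adjusted p = 0.0465). Replicates 1 to 3 had 12 of 17 higher, beside 14.9% of all genes, with a median of 0.85. In replicates 4 to 6, 0 were higher and 1 lower, with a median of -0.54. The fold change differed between the sets for 15 of 17, beside 16.3% of all genes. Gfap, the astrocyte filament protein, was 55.6 to 82.6 CPM in PS19 and 52.8 to 183 CPM in CgA-KO/PS19 and missed the threshold over all libraries (0.53 ± 0.29, adjusted p = 0.236), with 1.25 and -0.53 in the 2 sets. Of 26 genes of reactive astrocytes, 4 were higher, with Serpina3n foremost, then S100a10 (0.90 ± 0.16), Osmr, the oncostatin M receptor (0.73 ± 0.20), and Cd44 (0.78 ± 0.22). Within replicates 1 to 3, 6 of the 26 were higher and 1 lower, beside 14.9% and 16.2% of all genes, with a median of 0.28. Within replicates 4 to 6, 1 was higher and 0 lower, with a median of -0.0028. S100a10, Osmr and Cd44 missed the threshold there (adjusted p = 0.34, 0.74 and 0.55), and Serpina3n passed the test in both sets. Serpina3n was 76.8 to 86.1 CPM in CgA-KO/PS19 replicates 1 to 3 and 82.7 to 92.6 CPM in replicates 4 to 6.

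Microglial and inflammatory genes are read here beside the 5.5% of all genes higher and 4.22% lower. Of 24 genes of disease-associated microglia, Fth1, an iron store (0.60 ± 0.13), and Lpl, lipoprotein lipase (0.90 ± 0.18), were higher and Ctsb was lower. Of 17 homeostatic microglial genes, Slc2a5, a fructose transporter, fell from 7.33 CPM (5.37 to 7.85) to 3.79 CPM (3.37 to 4.73). Within replicates 1 to 3, 10 of the 24 disease-associated, 5 of the 17 homeostatic and 7 of 23 complement genes were higher, beside 14.9% of all genes, with medians of 0.55, 0.34 and 0.30. Within replicates 4 to 6, 0 were higher in each list, and the medians were -0.14, -0.58 and -0.26. Cd68 (0.03 ± 0.11, adjusted p = 0.896), Aif1 (0.26 ± 0.18, adjusted p = 0.361) and Il1b (-0.36 ± 0.36, adjusted p = 0.55) did not pass the test. Il6, Tnf, Cxcl1, Cxcl2, Ccl2, Ccl3 and Il10 lay at most at 0.25 CPM in each library and were not tested. Gbp2b, an interferon-induced guanylate-binding protein, had 0 counts in all PS19 and WT libraries and 0.969 to 2.14 CPM in CgA-KO/PS19, at least 20.1-fold higher against the limit of 9 counts. Its neighbour in family, Gbp7, rose by 0.54 ± 0.14 (adjusted p = 0.0251). Of 45 interferon response genes, 1 was higher and 2 lower, the latter being Cmpk2 (-0.45 ± 0.08) and Stat2 (-0.46 ± 0.12). Of the 45, 6 were higher and 4 lower in replicates 1 to 3, beside 14.9% and 16.2% of all genes, and 0 were called in replicates 4 to 6.

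Among 24 genes of oligodendrocytes and myelin, 3 were higher and 0 lower, beside 5.5% and 4.22% of all genes, with a median of 0.26. Mobp, a myelin protein, rose from 184 CPM (174 to 255.93) to 493 CPM (233 to 797; log2 fold change 1.37 ± 0.28, adjusted p = 0.00842), Mal, a proteolipid of compact myelin, from 95.9 CPM (74.1 to 131) to 153 CPM (115 to 177), and Ermn, a late oligodendrocyte cytoskeletal protein, from 46.5 CPM (39.2 to 59.4) to 75.7 CPM (51.5 to 118). All 3 overlapped between groups, and Mal was higher in both library sets. Replicates 1 to 3 had 8 of 24 higher, beside 14.9% of all genes, and replicates 4 to 6 had 1, beside 0.543%. Bcas1, expressed by early myelinating cells, rose by 1.01 ± 0.28. Of 20 endothelial genes, Vwf was lower (-0.71 ± 0.19) and Ly6a higher (0.98 ± 0.27).

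Immediate early genes, which respond to recent neuronal activity, differed between the library sets. Over all libraries 4 of 37 were higher and 0 lower (median 0.38), beside 5.5% and 4.22% of all genes. The higher ones were Nr4a2, Atf3 (2.06 ± 0.43, adjusted p = 0.0086), Maff (1.05 ± 0.30, adjusted p = 0.0338) and Ccn1 (1.56 ± 0.48, adjusted p = 0.0479). In replicates 4 to 6, 11 were higher and 0 lower, with a median of 0.72, against 0.543% and 0.263% of all genes. In replicates 1 to 3, 2 were higher and 7 lower, beside 14.9% and 16.2% of all genes, with a median of -0.38. The share lower there was thus near that of all genes. For 20 of 37 the fold change was lower there than in replicates 4 to 6, beside 16.3% of all genes that differed in either direction. Egr1, a zinc finger factor induced by synaptic activity, was 242 to 589 CPM in CgA-KO/PS19 replicates 1 to 3 and 1241 to 1559 CPM in replicates 4 to 6, while PS19 ranged from 258 to 687 CPM. The summed level of the list was 5112 to 6032 CPM in CgA-KO/PS19 replicates 4 to 6 and 1703 to 2659 CPM in replicates 1 to 3, and 2121 to 3571 CPM in PS19. Clustered protocadherins, which give neurons a surface identity, also differed: 8 of 58 were higher in replicates 4 to 6, beside 0.543% of all genes, and 2 were higher and 12 lower in replicates 1 to 3, beside 14.9% and 16.2% of all genes. Pcdhga5 was higher in both, at 1.64 to 2.95 CPM in PS19 and 6.67 to 17 CPM in CgA-KO/PS19.

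Smaller groups added single genes, and their counts are read beside 5.5% of all genes higher and 4.22% lower. Dbp, an output gene of the circadian clock, fell from 54.6 CPM (45.9 to 60.8) to 20.3 CPM (13.3 to 37.7; -1.13 ± 0.22, adjusted p = 0.00656), and it was the 1 called among 23 clock genes. Among 30 genes of cholesterol and fatty acid synthesis 3 were higher and 1 lower, with Scd1, a fatty acid desaturase, at 1.63 in replicates 1 to 3 and -0.15 in replicates 4 to 6. Of 62 motile cilium genes 6 were higher and 3 lower. Rsph4a, a radial spoke protein, and Rfx3, a transcription factor of cilia, rose by 1.40 ± 0.25 and 0.55 ± 0.12, and Cfap54 and Dnah6 fell by 0.95 ± 0.19 and 0.94 ± 0.21. Of 44 collagen genes 5 were higher and 1 lower, led by Col24a1 (1.96 ± 0.39) and Col11a1 (1.31 ± 0.30), with Col22a1 the lower one (-0.98 ± 0.21). Gap43, a growth cone protein, rose from 154 CPM (139.6 to 185) to 209 CPM (187 to 266), whereas Nrep and Tubb3, both tied to growing neurites, fell by 1.11 ± 0.18 and 0.62 ± 0.14. The histone gene H2bc21 rose by 0.80 ± 0.16, and Gng12, a G protein γ subunit, by 0.55 ± 0.11. Within replicates 1 to 3, 13 collagen genes were higher and 2 lower, beside 14.9% and 16.2% of all genes. The cilium list had 11 higher and 2 lower there, and the cholesterol list 4 and 3. Within replicates 4 to 6, 0 collagen and 0 cholesterol genes were called, and 1 cilium gene was higher and 2 lower. The collagen medians were 0.05 and -0.55 in the 2 sets.

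**Figure D4:**
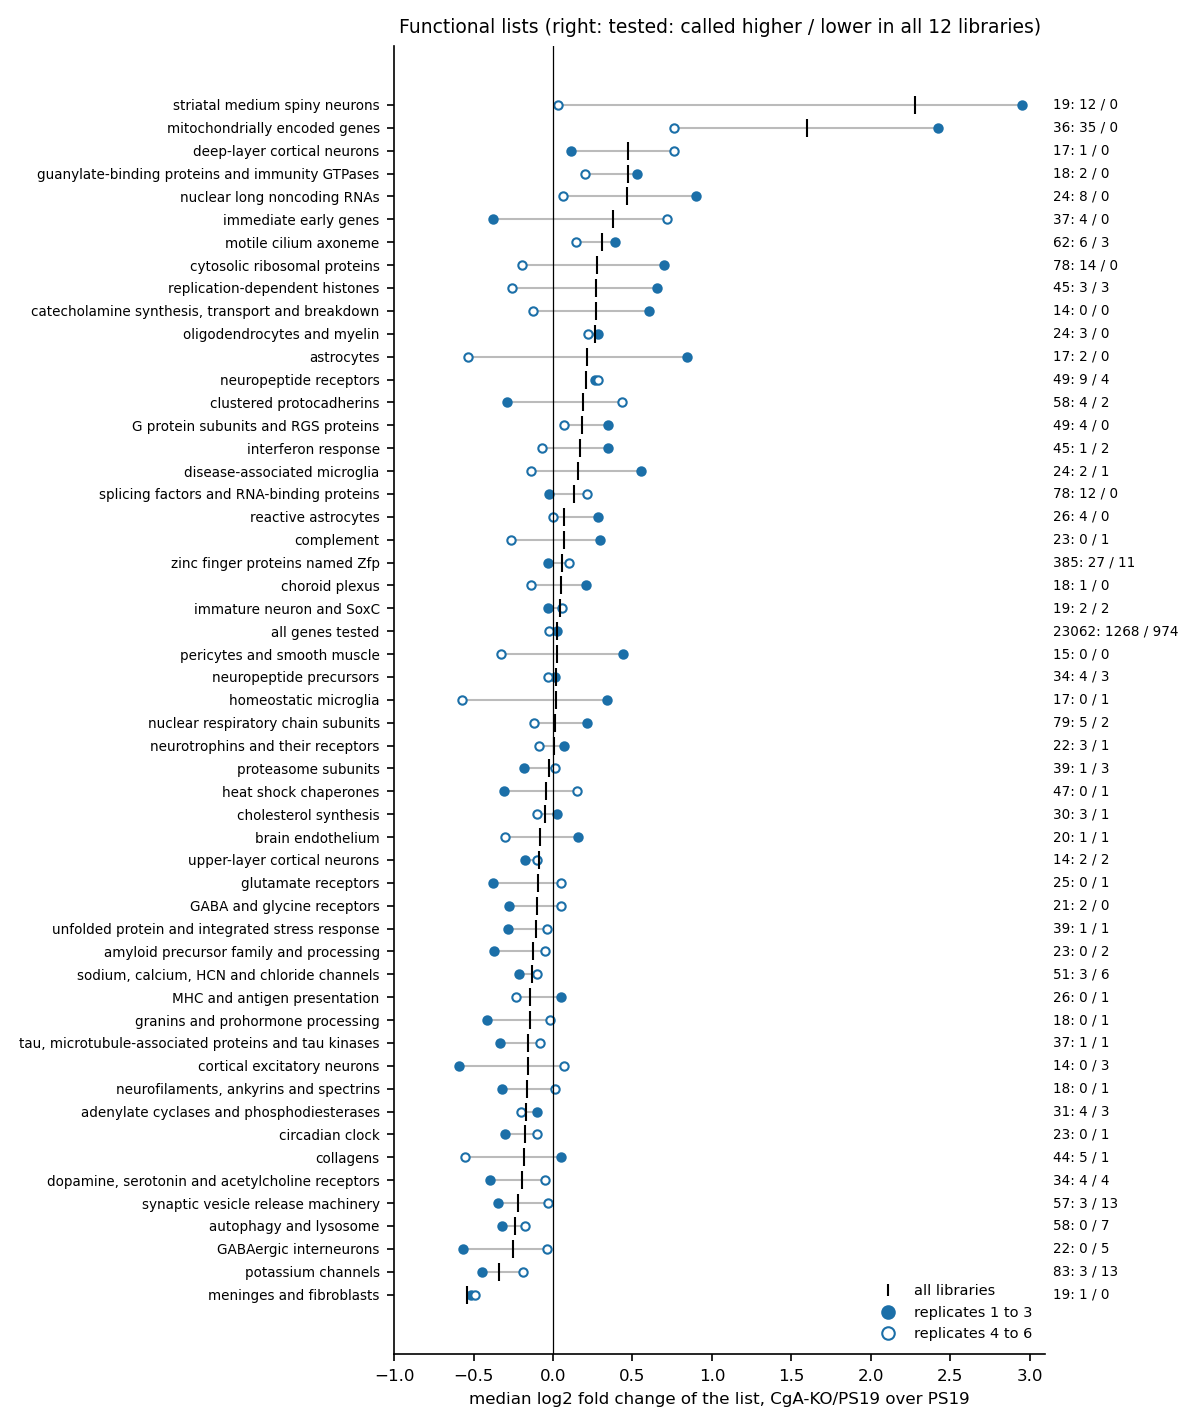
Median log2 fold change of CgA-KO/PS19 over PS19 (x axis) for each functional list with at least 14 tested genes, over all libraries (black tick), replicates 1 to 3 (filled) and replicates 4 to 6 (open), with the number tested and called higher and lower at the right. Mitochondrial, ribosomal, astrocyte and striatal lists lie higher in replicates 1 to 3, and immediate early genes lie higher in replicates 4 to 6.

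Among lists of brain regions, read beside 5.5% of all genes higher and 4.22% lower, those of the striatum and the claustrum held most calls. Of the others, 1 of 10 thalamic and 1 of 17 deep-layer markers were higher, 1 of 11 hippocampal markers was lower, and 0 of 9 olfactory and 0 of 6 hypothalamic markers were called. Striatal markers were higher in 12 of 19 cases and lower in 0, with a median of 2.28. Drd2, the dopamine D2 receptor of striatopallidal neurons, was 0.601 to 1.31 CPM in PS19 and 83, 10.9, 76.9, 0.889, 1.09 and 1.47 CPM in CgA-KO/PS19 replicates 1 to 6, and Six3, a striatal transcription factor, was at most 0.109 CPM in PS19 and 19.4, 4.18, 19.9, 0.124, 0.0738 and 0.0866 CPM. Drd1, the D1 dopamine receptor, rose as well (2.28 ± 0.52). In replicates 1 to 3, 16 of 19 striatal markers were higher, beside 14.9% of all genes, and 0 of 19 were called in replicates 4 to 6. WT held 1579 to 3801 CPM of these markers. With the level of this list as a covariate, 734 genes of the whole table were higher and 473 lower, of which 454 and 322 were also called without it. Of 9 markers of the claustrum and lateral cortex, 6 were higher and 0 lower, with medians of 1.27 and 1.03 in the 2 library sets. Besides Nr4a2, Gnb4 rose from 16.3 CPM (14.7 to 39.3) to 53 CPM (36.3 to 67.4), Lxn by 0.77 ± 0.15 and Synpr by 1.08 ± 0.26. The claustral list summed to 338 to 537 CPM in PS19, 657 to 812 CPM in CgA-KO/PS19 and 630 to 771 CPM in WT. Ccn2, a marker of the deepest cortical layer, rose from 13.4 CPM (8.81 to 21.3) to 33.3 CPM (27.4 to 40.5; 1.24 ± 0.20, adjusted p = 0.0022).

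Genes changed in CgA-KO/PS19 and not in WT were read from the same fit, in which both comparisons share the PS19 libraries. WT against PS19 had 5.9% of genes called, and CgA-KO/PS19 against WT 6.46%. Of the called genes, 983 higher (4.26%) and 810 lower (3.51%) were not called between WT and PS19. The difference between the 2 comparisons is CgA-KO/PS19 against WT, and with that test in the same direction 369 higher (1.6%) and 171 lower (0.741%) remained. A further 284 higher (1.23%) and 162 lower (0.702%) were called in both comparisons in the same direction. Those with the test included Serpina3n, with a log2 fold change of -0.24 in WT over PS19, Pop4 (-0.02), Utp14b (0.21), Rps3a1 (-0.27), Pcdhga5 (0.33), Gm26782 (-0.11) and A830036E02Rik (0.13) among the higher. The lower ones included Pnma2 (0.25), F2r (0.24), Klhl33 (-0.71), Gm6166 (-0.31), Gm3375 (-0.32), Tdg-ps2 (-0.43) and Gm7224 (-0.14). These genes were chosen for not being called between WT and PS19, so small WT fold changes follow from the choice. They do not mean equal levels: for Pnma2, WT was at 84.8 to 108 CPM, above every PS19 library. Klhl33 was close to the limit, with an adjusted p of 0.0522 between WT and PS19. In replicates 4 to 6 alone the count with the test was 43 higher and 20 lower. Over all libraries it was 181 and 96 without CgA-KO/PS19 replicate 2, 629 and 353 without replicate 4, and 566 and 406 without WT replicate 4.

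**Figure D5:**
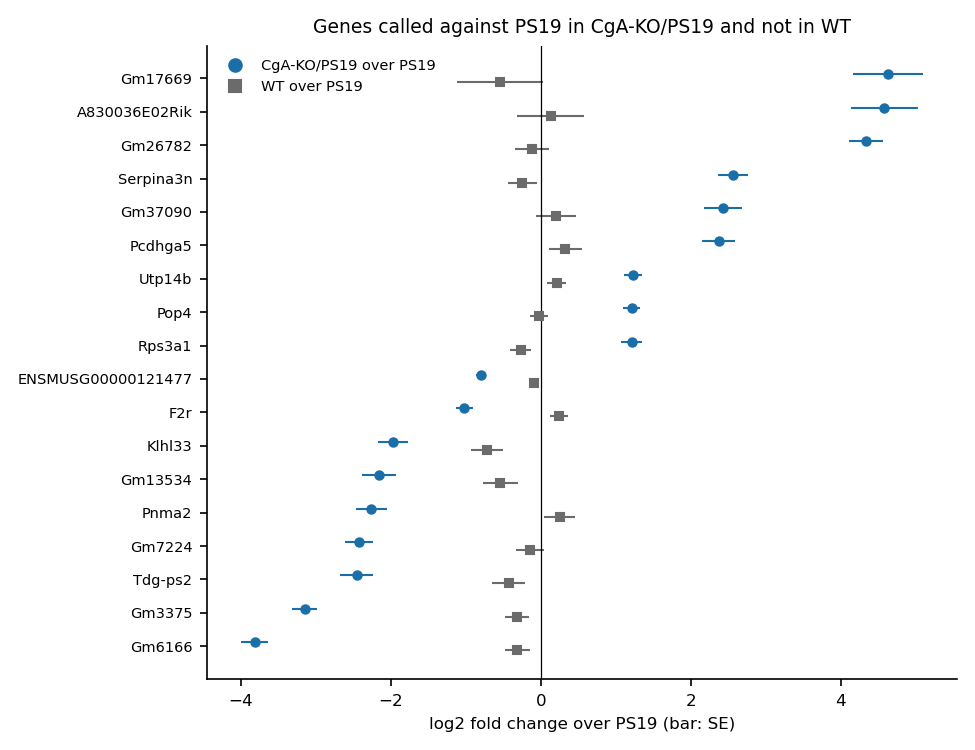
Log2 fold change over PS19 (x axis, bar: SE) in CgA-KO/PS19 (blue circles) and WT (grey squares) for 18 genes called in the former and not in the latter, with a called difference between them. CgA-KO/PS19 values run from -3.81 to 4.63 and WT values from -0.71 to 0.33.

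For 3 genes (0.013%) the comparisons with PS19 went opposite ways. Slc17a8, the vesicular glutamate transporter VGLUT3 of a subset of interneurons and serotonergic fibres, was 5.7 to 8.26 CPM in PS19, 2.67 to 4.85 CPM in CgA-KO/PS19 and 7.44 to 13.9 CPM in WT. Its log2 fold changes were -0.75 ± 0.17 (adjusted p = 0.0156) and, for WT, 0.67 (adjusted p = 0.0357). Epha3, an ephrin receptor of axon guidance, was 11.1 to 14.5 CPM in PS19, 7.61 to 9.91 CPM in CgA-KO/PS19 and 14.6 to 17.6 CPM in WT, with no overlap among the 3 genotypes. AW495222, an unnamed transcript, was 1.19 to 1.62 CPM in PS19, 2.54 to 7.05 CPM in CgA-KO/PS19 and 0.512 to 1.03 CPM in WT.

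Genes were also placed by their distance from the deleted gene. Within 5 Mb of Chga on chromosome 12, 16 of 105 tested genes were called, which is 15.2% beside 9.72% of all genes, and 6 (5.71%) belonged to the set not called in WT with a called difference. By distance, 3 of 34 were called within 1 Mb, 5 of 18 from 1 to 2 Mb, 8 of 53 from 2 to 5 Mb and 61 of 523 beyond 20 Mb. Serpina3n lies 1.84 Mb from Chga. Serpina1b, another serpin, rose from at most 0.0879 CPM to between 0.203 and 0.41 CPM at a distance of 1.16 Mb. Clmn, 2.20 Mb away, rose by 0.72 ± 0.16 (adjusted p = 0.011). Over 407 windows of 5 Mb with at least 20 tested genes, the median share of genes not called in WT with a called difference was 1.69%, and 159 windows had none. Windows with high shares lay elsewhere too. Besides the mitochondrial genome (24 of 36), 8 of 52 genes fell in a window of chromosome 14 that holds Pnma2, Gm16867 and Gm27177, and 10 of 77 in another window of that chromosome that holds Gm26782 and Klhl33. In a window of chromosome 4, 9 of 89 genes did, and all 9 were lower, among them Rex2, Zfp600 and Zfp980, chosen for mention after their values were seen. The part of strain background in these windows was not tested.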

How the data were processed

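PolyA RNA of the prefrontal cortex of 17 mice (5 WT, 6 PS19, 6 CgA-KO/PS19) was sequenced by the authors in paired reads of 100 bases from 500 ng of RNA. The authors trimmed reads with Trimmomatic 0.39, aligned them with STAR 2.7.10b and deposited a table of counts per gene made with StringTie 1.3.6, whole numbers without normalization. The annotation release and strand setting are not given in the sources used here. The table holds 56953 genes, 39993 with a count, 52029 matched to GENCODE M21 (GRCm38) by identifier. No row lacks a gene name and 0 columns belong to other series. Library totals lay between 8838334 and 184389431 counts for WT, and those of the other genotypes are given with the results. A fragment gave about 3 counts, so the limit for a count of 0 is 9 counts and covers counting error only.

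Genes passing the expression filter of edgeR 4.0.16 (R 4.3.3; 23062 genes) were tested with its quasi-likelihood test after TMM scaling, in 1 fit over the 3 genotypes, with Benjamini-Hochberg adjustment at 0.05. The test was tested on simulated data. DESeq2 1.42.0 and limma 3.58.1 served as alternatives, beside other filters, scalings, covariates and the removal of single libraries. The split into replicates 1 to 3 and 4 to 6 by Ddx3y (1 CPM) and the mitochondrial covariate were chosen after seeing the data. Levels are CPM, given as lowest, median and highest. The study counts its replicates as biological; the labels do not say which libraries share a litter or day, so p-values measure the spread between these samples. Members and lists were chosen with earlier results of these data known.

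Genes named are Chga, Mapt and Prnp; the 10 per direction with the smallest p and the largest fold change among called genes of at least 5 CPM without overlap; up to 5 called and the 2 most abundant members of each list; the 10 per direction not called in WT with a called difference and at least 1 CPM; genes called in opposite directions; called genes within 5 Mb of Chga; and adrenergic receptors and the glial and cytokine genes the study measured. A gene counts as changed here but not in WT where it was called against PS19, not called between WT and PS19, and called against WT in the same direction. Shared sequence is the share of 31-base stretches found in another gene of GENCODE M21. Some genes that the naming rule takes are not reported here.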

Additional observations from a re-analysis of the deposited data

Results flagged for a closer look

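Of 284 groups of 6 libraries examined for a single library far from the others, 20 had one, 15 in PS19 and 5 in CgA-KO/PS19, where chance gives about 1 in 20. PS19 replicate 3 stood apart for Mapt (952 CPM), Gm26782 (2.17 CPM) and Atp5d (82.3 CPM). PS19 replicate 1 stood apart for Nr4a2 (48.6 CPM), F2r (7.14 CPM), Cplx1 (866 CPM), Napa (215 CPM), Lynx1 (454 CPM), Neu1 (46.4 CPM), Slc2a5 (5.37 CPM), Gbp7 (4.55 CPM), Sox11 (16.0 CPM) and Gnb4 (39.3 CPM). CgA-KO/PS19 replicate 4 stood apart for Pnma2 (32.1 CPM), Tspan5 (92.1 CPM), Ndufv1 (87.7 CPM), Sstr1 (15.2 CPM) and Cd68 (6.29 CPM). PS19 replicate 2 stood apart for Utp14b (10.1 CPM) and Kcnq1ot1 (16.6 CPM).

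The fold change of CgA-KO/PS19 over PS19 differed between replicates 1 to 3 and replicates 4 to 6 for 46 of the named genes, by an interaction term in edgeR (adjusted p between 0.000137 and 0.0471). Values are the log2 fold change in replicates 1 to 3 minus that in replicates 4 to 6. It was positive for Six3 (8.502), Drd2 (6.001), Col11a1 (2.00), mt-Co1 (1.99), Drd1 (1.79), Scd1 (1.78), Gfap (1.78), mt-Cytb (1.69) and A830036E02Rik (1.69). Further positive differences were those of mt-Rnr1 (1.69), mt-Co2 (1.68), Gm28661 (1.68), Kcnq1ot1 (1.33), Meg3 (1.31), Aqp4 (1.29), Mobp (1.21), Rpl29 (1.17), Rps26-ps1 (1.17) and Osmr (1.11). Further positive differences were those of Slc1a3 (1.06), Dnah6 (1.04), Rps24 (1.02), Aif1 (1.004), Cfap54 (0.89), S100a10 (0.83), Clmn (0.78), Rps3a1 (0.76), Pde8a (0.74) and Fth1 (0.70). Further positive differences were those of Ndufb4 (0.63). It was negative for Ccn1 (-1.57), Atf3 (-1.28), Ccn2 (-1.21), Grm2 (-1.12), Adcyap1 (-1.11), Adcy9 (-1.05), Sstr1 (-0.96), Lamp5 (-0.94) and Klhl33 (-0.90). Further negative differences were those of Gm6166 (-0.71), Nrep (-0.68), Kcnc1 (-0.65), Prnp (-0.65), Gm3375 (-0.57), Ctsb (-0.54) and Mapt (-0.44). The cause of these differences was not tested, and Ddx3y and the mitochondrial share move with the library sets.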

How the results depend on the processing

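Of 135 called genes named, 21 were called in all 28 alternatives, as were Chga and Gbp2b in the 27 that tested them, and 127 kept their direction wherever tested. Serpina3n, Nr4a2, Vps41, Pop4, Pnma2, F2r, Klhl33, Gm6166 and Gm3375 are among the 21.

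Leaving out 1 PS19 or CgA-KO/PS19 library gave 616 to 2018 genes higher and 403 to 1804 lower, 1120 to 1805 and 578 to 1115 by the threshold of the study, and 181 to 629 and 96 to 353 not called in WT with a called difference; the lowest were without CgA-KO/PS19 replicate 2 and the highest without replicate 4. In the same order, DESeq2 gave 2338 higher and 1620 lower, with 720 and 320 not called in WT. Limma voom with quality weights gave 2379 and 2850, 1316 lower by the threshold of the study, and 691 and 610 not called in WT. Without a filter 744 were higher, 217 of them not called in WT. With the striatal list as covariate 734 and 473 were called, 167 higher ones not in WT. With near-identical libraries averaged the counts were 114 and 54, 818 and 422 by the study threshold, and 69 and 28 not called in WT. These alternatives were joined by 3 chosen after seeing the data. Libraries with Ddx3y alone gave 3214 and 3499, 2526 and 2081 by the study threshold, and 1565 and 2013 not called in WT. Libraries without it gave 128 and 62, 482 and 408, and 43 and 20. The mitochondrial share as covariate gave 53 and 22, 301 and 169, and 40 and 18. Without WT replicate 4, the shallowest library, the counts were 1819 and 1726, with 566 and 406 not called in WT. The causes were not tested.

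With the replicate number as a block, 388 genes were higher and 266 lower, with 119 and 61 not called in WT. Same-numbered PS19 and CgA-KO/PS19 libraries did not deviate together (correlations of -0.13 to 0.0184 over 11804 genes, none best with its own number). They share the number and the presence or absence of Ddx3y, and the main fit did not pair them.

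Log2 fold changes turned with the mitochondrial covariate for Mapt (0.32), mt-Co1 (-0.071), Rps24 (-0.088), Neu1 (0.0039), Gfap (-0.40), Aqp4 (-0.18), Slc1a3 (-0.17), Cd68 (-0.14), Aif1 (-0.29), Bcas1 (-0.092) and Scd1 (-0.14). They turned without Ddx3y libraries for Drd2 (-0.0083), Gfap (-0.53), Aqp4 (-0.035), Slc1a3 (-0.064), Cd68 (-0.0693), Aif1 (-0.28) and Scd1 (-0.15), and with Ddx3y libraries alone for Egr1 (-0.16). Gfap (-0.26) and Cd68 (-0.069) turned with the striatal covariate, and Cd68 without a filter (-0.026) and without PS19 replicate 2 (-0.0034), within a range of -0.0034 to 0.087 as single libraries were left out.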
